A study of Mus with 16 samples.

Results

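The comparison uses 8 of the 16 RNA libraries in the series, the 4 from B cell-depleted tumors and the 4 from wild-type (WT) tumors of mice that received anti-PD-L1 antibody. The members were taken by the column names of the read table, BKO_PDL1 for the B cell-depleted group and WT_PDL1 for the WT group, with columns A to D in each. All mice were C57BL/6 and carried B16 melanoma, a transplantable pigmented tumor of the same strain, placed under the skin. Per the sample labels, treatment began after 7 days of tumor growth, with 3 doses of antibody spaced 3 days apart. Tumors were taken 3 days after the last dose. The remaining 8 libraries, 4 from B cell-depleted and 4 from WT tumors of untreated mice, entered the fit because the 4 groups shared one estimate of the spread.

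Several limits of the groups come from the records. The general treatment schedule in the methods of the study has an earlier first dose and more doses than the labels, which are followed here. The column names read BKO while the sample labels read depleted. The methods of the study describe both a B cell knockout strain and depletion by an antibody, and which of them was used for these tumors is not stated. The series text also speaks of an intratumoral TLR-7/8 agonist, 3M-052, or its control, which no sample label assigns, so its part in these libraries cannot be told apart. The study used female mice. The series text counts 4 mice in each group, but the letters A to D could not be matched to the numbered tumors of the labels.

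PD-L1 is a surface ligand on tumor and myeloid cells that engages PD-1 on T cells and restrains them, and antibodies against it release that restraint. B cells make antibody, present antigen to T cells and can gather with them into lymphoid clusters in tumors. In RNA from whole tumors, fewer cells of a type and less RNA per cell cannot be told apart.

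The 4 B cell-depleted libraries held 12544573, 31680495, 26416213 and 26889180 counts in columns A to D, and the 4 WT libraries 27630828, 35647409, 25707320 and 26130954. Column A of the B cell-depleted group was therefore the shallowest of the 8, and its low counts carry the most counting error. Pairs of libraries within a group correlated across genes at r = 0.970 to 0.988 in B cell-depleted tumors and 0.973 to 0.989 in WT tumors. The first principal component of the 8 libraries held 39.7% of the variance, with scores of -50.7 to -18.1 in B cell-depleted tumors and 12.9 to 64.96 in WT tumors. WT column D lay farthest out, at 64.96. Values below are counts scaled to the library total (CPM) after trimmed-mean (TMM) scaling unless counts are named, and changes are log2 values of B cell-depleted over WT. The pigment-cell genes were present at 25800 to 28250 CPM in sum in B cell-depleted tumors and 27960 to 30760 CPM in WT tumors, so the melanoma label held in all 8.

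Before the wider comparison, 6 genes that B cells express served as a check of the depletion label. Igkc, the constant region of the kappa light chain, had 0, 0, 0 and 0 counts in B cell-depleted tumors, against 13, 1, 3 and 9 counts in WT tumors. The groups did not overlap. Igkc was at least 7.26-fold lower in B cell-depleted tumors, with the floor set at 3 counts over the whole group. The exact two-sided permutation test over libraries gave p = 0.0286, the smallest that 70 splits of 4 against 4 allow, and 0.171 after Benjamini-Hochberg adjustment over the 6 genes. Without any single B cell-depleted library the p was 0.0857. The difference in means was -0.234 CPM, and it lay between -0.303 and -0.156 CPM as each library was left out.

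The other B cell genes did not separate the groups. Ighm, the mu heavy chain, had 26 counts in all in B cell-depleted tumors and 54 in WT tumors. Cd79a, a signaling chain of the B cell receptor, averaged 0.746 ± 0.392 CPM in B cell-depleted tumors and 0.860 ± 0.165 CPM in WT tumors (SD, n = 4 each). Cd79b, its partner, had 18 counts in B cell-depleted and 9 in WT tumors. Ms4a1, which encodes CD20, had 4 counts in B cell-depleted and 8 in WT tumors. These genes were at low counts in both groups. Of a wider list of B cell genes, 12 had enough counts to test. Of these, 7 had a positive change, and the median was 0.07, or -0.18 over members that overlap no other gene. The summed level of the list was 93.3 to 96.9 CPM in B cell-depleted tumors and 94.5 to 108.5 CPM in WT tumors. The wider list therefore did not separate the groups either.

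Across 19340 genes with enough counts, edgeR called 135 at an adjusted p under 0.05, which is 0.698% of those tested. Of these, 86 rose in B cell-depleted tumors (0.445%) and 49 fell (0.253%). In 134 of the 135 the 4 B cell-depleted libraries did not overlap the 4 WT libraries, the exception being the lincRNA AC158975.1. Over all genes tested, 21.8% did not overlap between the groups, 10% with every B cell-depleted library higher and 11.8% with every one lower. The lowest adjusted p of edgeR was 0.00997, and 4842 genes had an unadjusted p under 0.05 (25.0% of those tested, 13.7% higher and 11.3% lower). The median change of all genes was 0.03.

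The number of calls depended on the libraries that estimated the spread. BKO_untreated B, which entered that estimate, lay far from its group. Its GC slope (defined below) was -0.720, against 0.286, -0.104 and 0.321 in columns A, C and D. On the first principal component of all 16 libraries it scored 102, against -32.3, 20.7 and -37.6. With the 8 treated libraries alone edgeR called 2602 genes (1202 higher and 1400 lower, 13.5% of those tested, 6.22% higher and 7.24% lower), and all 135 were among them. DESeq2 called 1503 (949 higher and 554 lower; 7.77%, 4.91% and 2.86%) and limma voom 72 (40 higher and 32 lower; 0.372%, 0.207% and 0.165%). Leaving out a treated library gave 12 (BKO_PDL1 A), 17 (BKO_PDL1 B), 25 (BKO_PDL1 C), 13 (BKO_PDL1 D), 10 (WT_PDL1 A), 3 (WT_PDL1 B), 0 (WT_PDL1 C, where 3758 genes had an unadjusted p under 0.05) and 6 calls (WT_PDL1 D). Leaving out an untreated library gave 3742 (B cell-depleted B), 517 (B cell-depleted D), 130 (B cell-depleted A), 30 (B cell-depleted C), and 10, 9, 6 and 8 calls (WT A to D). Individual calls below therefore rest on the full set of libraries. All 135 kept their direction in each of these fits. For 134 of them this was largely fixed beforehand, because their groups did not overlap. On the log2 values of the authors 117 of the 132 with a value kept their direction.

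The genes that rose and those that fell were of different kinds. Of the 86 that rose, 62 were protein-coding, 13 were pseudogenes and 11 were of other classes. Their median change was 1.41, with a range of 0.55 to 3.07, and 66 at least doubled. Of the 49 that fell, only 14 were protein-coding, and 29 were pseudogenes. Their median change was -0.92, the largest fall was 2.31 on the log2 scale, and 21 were at least halved. By class, edgeR called 62 higher and 14 lower of 15110 protein-coding genes, and 13 higher and 29 lower of 2305 pseudogenes. Pseudogene counts are uncertain, because reads of a parent gene can be assigned to its copies.

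Among protein-coding genes that other genes overlap by less than 50% of their span, the largest rise was in Marveld2, which encodes tricellulin, a protein of the points where 3 epithelial cells meet (chromosome 13, 100595957 to 100616971, minus strand, build mm10). It stood at 1.5, 0.770, 0.962 and 0.802 CPM in B cell-depleted tumors, against 0.0721, 0.276, 0.383 and 0.144 CPM in WT tumors. These are low levels, and every B cell-depleted library was above every WT library. The change was 2.13 ± 0.45 (SE; edgeR adjusted p = 0.0431). Samd12, a sterile alpha motif protein, followed at 69.8, 29.9, 23.2 and 57.1 CPM in B cell-depleted tumors and 9.05, 11.8, 13.9 and 6.61 CPM in WT tumors, a change of 2.11 ± 0.39. In the normalized log2 values that the authors deposited, Samd12 went the other way, at -0.29.

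Rps21, a protein of the small ribosomal subunit, had 221, 59.0, 50.7 and 92.2 CPM in B cell-depleted tumors, against 22.7, 31.5, 36.1 and 13.4 CPM in WT tumors. Column A of the B cell-depleted group was the high one, and without it the change was 1.38 in place of 2.02. The same column stood high for Angel1, at 135, 40.4, 55.2 and 63.4 CPM in B cell-depleted tumors and 22, 24.9, 22.4 and 21.0 CPM in WT tumors. Its change without column A was 1.23, against 1.70 with it, and 0.18 in the log2 values of the authors. Tmem63c, a membrane channel gene, fell into the same pattern, with 1.95 over all libraries and 1.46 without column A.

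ERDR1 and Mid1 are given with caution, because both lie at or near the pseudoautosomal boundary that the sex chromosomes share and the table carries a Y copy of each. ERDR1 averaged 129 ± 29.5 CPM in B cell-depleted and 33.0 ± 4.91 CPM in WT tumors (SD, n = 4 each), a change of 1.97. MID1 as listed on the Y averaged 5.18 CPM in B cell-depleted tumors and 1.85 CPM in WT tumors, and Mid1 on the X averaged 26.6 and 13.6 CPM in the same order. Reads of the copies cannot be separated in these counts.

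**Figure D1:**
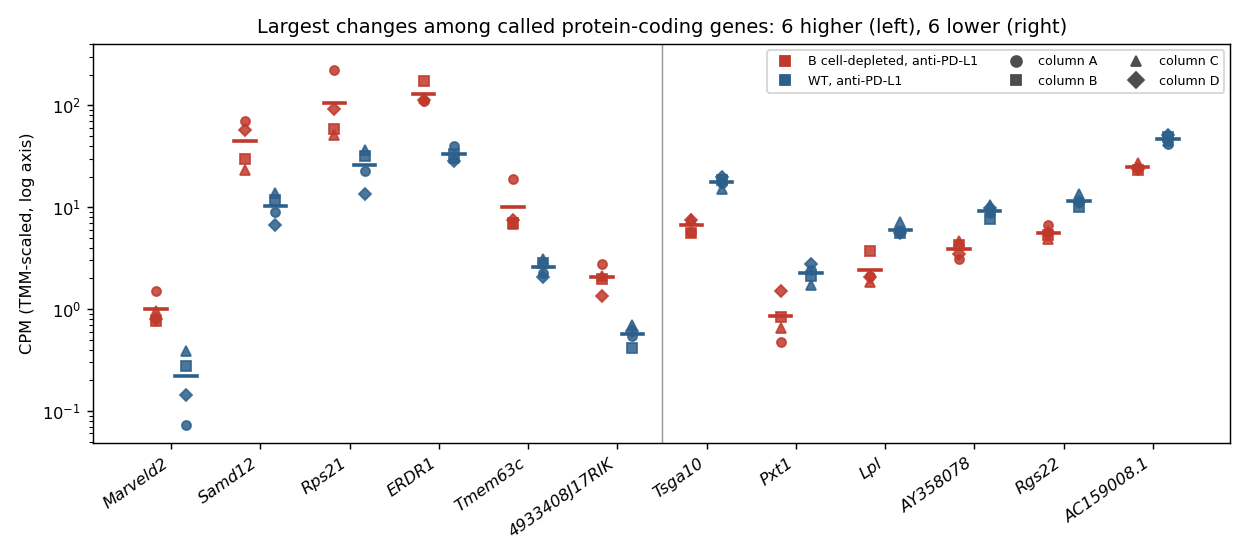
CPM on a log axis in each of the 8 treated libraries (marker shape gives the column, A to D; bars are group means) for the 6 largest rises and 6 largest falls among called protein-coding genes with under 50% of the span overlapped. Every B cell-depleted point lies above every WT point for Marveld2 to 4933408J17RIK and below for Tsga10 to AC159008.1, and BKO_PDL1 A is the high point for Rps21, at 221 CPM.

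Several called genes sat close together within each group. Comtd1, a methyltransferase-domain protein, had 30.2, 23.4, 27.4 and 27.4 CPM in B cell-depleted tumors, against 11.8, 10.1, 11.3 and 7.11 CPM in WT tumors. Its change of 1.42 ± 0.22 (edgeR adjusted p = 0.0202) remained called in 5 of the 8 fits that left out a treated library. Of the Comtd1 span, 45.52% is shared with other genes, mostly A430057M04Rik. Ccdc58 stood at 19.1, 17.6, 16.9 and 12.2 CPM in B cell-depleted tumors and 8.90, 8.10, 8.32 and 7.65 CPM in WT tumors. Nudt8, a Nudix hydrolase, had 15.6, 13.2, 15.4 and 15.5 CPM in B cell-depleted tumors, against 7.61, 7.82, 6.44 and 6.43 CPM in WT tumors, though 56.73% of its span is shared with other genes, mostly Doc2g, which was also called.

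Some abundant transcripts, chosen after their values were seen, showed what the change looked like at high counts. Lgals1, which encodes galectin 1, a secreted lectin that binds glycans on T cells, had 1391, 621, 874 and 1062 CPM in B cell-depleted tumors, against 461, 516, 524 and 309 CPM in WT tumors, a change of 1.12 ± 0.23. Neat1, the long non-coding RNA that scaffolds paraspeckles, had 156, 268, 167 and 143 CPM in B cell-depleted tumors, against 63.2, 77.8, 50.5 and 90.3 CPM in WT tumors, a change of 1.38 ± 0.30. Cited1, a transcriptional co-regulator expressed in melanocytes, had 126, 65.1, 125 and 177 CPM in B cell-depleted tumors, against 55.9, 56.9, 45.9 and 49.2 CPM in WT tumors, a change of 1.24 ± 0.25. All 3 passed the edgeR threshold, at adjusted p = 0.0428, 0.0463 and 0.0428, and in none did the groups overlap. With the GC slope of each library as a covariate (defined below) the adjusted p was 0.0873 for Lgals1, 0.155 for Neat1 and 0.108 for Cited1.

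The protein-coding genes that fell were few. Tsga10, a testis and sperm tail gene, averaged 6.63 ± 1.15 CPM in B cell-depleted tumors and 17.7 ± 1.99 CPM in WT tumors. Rgs22, a regulator of G protein signaling known from testis, averaged 5.63 ± 0.774 and 11.5 ± 1.49 CPM in the same order, a change of -1.04 that was 0.00 in the log2 values of the authors. Lpl, lipoprotein lipase, which frees fatty acids from circulating lipoproteins, had 2.13, 3.70, 1.85 and 2.06 CPM in B cell-depleted tumors and 5.77, 5.55, 7.21 and 5.52 CPM in WT tumors. Cd36, the fatty acid receptor, chosen after its values were seen, pointed the same way without passing the test: 3.40, 5.60, 2.39 and 2.56 CPM in B cell-depleted tumors, against 10.4, 8.43, 11.2 and 4.91 CPM in WT tumors, a change of -1.31 ± 0.32 (edgeR adjusted p = 0.0535). The Cd36 groups overlapped. The list of fatty acid uptake and oxidation genes had 17 of 35 positive and a median of -0.03. The adipocyte list had 6 of 9 positive and a median of 0.075.

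Slc7a11, the cystine and glutamate antiporter that supplies glutathione synthesis, had 38.6, 27.1, 41.6 and 26.5 CPM in B cell-depleted tumors, against 48.3, 58.3, 46.4 and 75.9 CPM in WT tumors. It fell by 0.78 on the log2 scale (SE 0.17; edgeR adjusted p = 0.0493). Slc1a1, a glutamate transporter, had 63.0, 51.1, 58.5 and 55.2 CPM in B cell-depleted tumors, against 82.3, 88.4, 84.8 and 79.1 CPM in WT tumors. Both amino acid carriers were lower in every B cell-depleted library than in any WT library, although part of the Slc1a1 span (28.26%) overlaps other genes and the pseudogene within it, Gm5822, was called as well. In the normalized log2 values of the authors the change of Slc1a1 was -0.01, against -0.56 in the counts, and that of Slc7a11 -0.73.

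The remaining falls were modest and even. Xrcc5, which encodes Ku80 of the DNA end-joining machinery, had 69.4, 66.5, 68.3 and 66.0 CPM in B cell-depleted tumors, against 105, 99.5, 119 and 110 CPM in WT tumors, a change of -0.68 ± 0.15. Ddx18, a DEAD-box helicase of ribosome assembly, changed by -0.60 ± 0.13, and Nrbf2, a component of the autophagy lipid kinase complex, by -0.58 ± 0.13. Pde7b, a cyclic AMP phosphodiesterase, averaged 11.1 ± 1.65 CPM in B cell-depleted tumors and 18.6 ± 2.41 CPM in WT tumors. Tceb3, which encodes Elongin A, averaged 39.9 ± 2.21 and 56.6 ± 3.34 CPM in the same order.

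The gene groups gave a broader view of the change. Each of the 56 lists is described by its counts and its median, since the lists were drawn up with earlier results known and carry no test of their own. Of 55 lists with a tested member, 14 held a called gene. Counts of called members stand against the shares over all genes tested. These were 0.445% higher and 0.253% lower in the fit of all libraries, and 6.22% and 7.24% in the fit of 8. At an unadjusted p under 0.05 of edgeR they were 13.7% and 11.3%. In 7 lists the median of every B cell-depleted library lay above that of every WT library, and in 3 lists below. These 10 are 18.2% of the lists, near the 21.8% of single genes whose groups did not overlap. They covered ribosomal proteins, the respiratory chain, histones, immediate early genes, cytokines, checkpoint molecules and killer lymphocyte genes on the higher side, and replication, mitosis and innate sensor genes on the lower side. The checkpoint list had 11 of 19 positive and a median of 0.17, which was 0.00 with the GC slope as a covariate. Its sum ran from 734 to 866 CPM in B cell-depleted tumors and 801 to 924 CPM in WT tumors. Cytokine genes had 18 of 24 positive and a median of 0.17, or 0.10 with that covariate. Immediate early genes had 23 of 27 positive and a median of 0.35, or 0.09 with it.

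Transcripts for the proteins of the cytoplasmic ribosome, the machine that makes cellular protein, were mostly higher. Of 81 tested, 73 had a positive change and the median was 0.55. In the fit of all libraries 3 were called higher and 0 lower, with 43 higher and 0 lower at an unadjusted p under 0.05. The fit of the 8 treated libraries called 25 higher and 0 lower, DESeq2 28 higher and 0 lower, and voom 1 higher. In 35 of the 81 every B cell-depleted library was above every WT library, and in 0 every one was below. Relative to the mean of the 8 libraries, the median of the list stood at 0.71, 0.05, 0.17 and 0.21 in B cell-depleted columns A to D, against -0.07, -0.02, -0.18 and -0.82 in WT columns A to D. The outer values came from BKO_PDL1 A and WT_PDL1 D. The median change was 0.36 without BKO_PDL1 A and 0.40 without WT_PDL1 D, and at most 0.65 as each library was left out. It was 0.59 in the log2 values of the authors and 0.48 with the GC slope as a covariate.

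The called members beside Rps21 were Rpl28 and Rps28. Rpl28 had 117, 70.1, 95.9 and 82.3 CPM in B cell-depleted tumors, against 53.4, 47.1, 46.3 and 31.2 CPM in WT tumors, a change of 1.03 ± 0.21 (edgeR adjusted p = 0.0428). Rps28 had 35.8, 19.2, 21.8 and 16.1 CPM in B cell-depleted tumors, against 11.4, 11.6, 10.7 and 7.69 CPM in WT tumors, with 70.30% of its span shared with Kank3 and other genes. The summed level of the list ran from 16930 to 25080 CPM in B cell-depleted tumors and 10960 to 17770 CPM in WT tumors, so the sums overlapped at their edges. Many of these genes have processed pseudogenes, and 2 such loci, Rpl31-ps1 and Rpl38-ps1, were called higher too, at 1.48 and 1.49.

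Other parts of the protein synthesis and turnover machinery did not lean the same way. Of 82 translation factors and tRNA synthetases, 33 were positive and the median was -0.12, with 1 called higher in the fit of all libraries and 4 higher and 10 lower in the fit of 8. The called member was Eif4a3, the helicase that anchors the exon junction complex on spliced messages. It had 92.9, 77.9, 85.3 and 83.9 CPM in B cell-depleted tumors, against 64.2, 52.6, 53.3 and 30.1 CPM in WT tumors, a change of 0.76 ± 0.17 (edgeR adjusted p = 0.0493). The subunits of the constitutive proteasome had a median of -0.05, with 14 of 34 positive. The fit of 8 called 2 higher and 5 lower (6.22% and 7.24% of all genes). The proteasome median was 0.08 with the GC slope as a covariate, and that of the translation list -0.02.

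Nuclear genes of the mitochondrial respiratory chain, which pass electrons to oxygen and make ATP, were also mostly higher. Of 76 tested, 57 were positive and the median was 0.40, with 1 called higher in the fit of all libraries and 19 higher and 1 lower in the fit of 8. In 32 of the 76 every B cell-depleted library was above every WT library, and in 2 every one was below. The list median stood at 0.53, -0.04, 0.07 and 0.20 in B cell-depleted columns A to D, against -0.09, -0.10, -0.05 and -0.48 in WT columns A to D. It was 0.40 with the GC slope as a covariate and between 0.30 and 0.45 as each library was left out. The called member was Atp5k, a subunit of ATP synthase, with 84.1, 24.8, 25.6 and 30.9 CPM in B cell-depleted tumors and 14.6, 15.7, 13.5 and 7.58 CPM in WT tumors. BKO_PDL1 A was again the high library, and the change of 1.68 became 1.08 without it.

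Other called genes of the mitochondrion lay outside that list. Stoml2, a stomatin-like protein of the inner membrane, had 42.7, 38.9, 44.1 and 42.4 CPM in B cell-depleted tumors, against 30.8, 27.8, 25.1 and 22.7 CPM in WT tumors, a change of 0.66 ± 0.13. A further 3 were chosen after their values were seen. Tomm7, of the outer membrane import pore, averaged 96.9 CPM in B cell-depleted and 36.7 CPM in WT tumors, Fis1, a fission factor, 110 and 70.4 CPM, and Cox17, a copper chaperone for cytochrome oxidase, 58.6 and 39.4 CPM. The table lists Cox17 at overlapping positions under 2 spellings, so it is 1 locus. Slc25a27, an uncoupling protein of the inner membrane, had 9.24, 10.9, 6.58 and 8.40 CPM in B cell-depleted tumors, against 2.02, 2.54, 2.80 and 4.40 CPM in WT tumors.

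Mitochondrial ribosomal proteins had a smaller median. Of 76 tested, 51 were positive and the median was 0.15. In the edgeR fit of all libraries 0 were called, with 18 higher and 6 lower at an unadjusted p under 0.05. The fit of 8 called 9 higher and 6 lower, DESeq2 13 higher and 0 lower, and voom 0. Over all genes tested the shares were 6.22% and 7.24% in the fit of 8, and 4.91% and 2.86% by DESeq2. The median was 0.02 without WT_PDL1 D. Mrpl54 averaged 60.6 ± 17 CPM in B cell-depleted tumors and 32.8 ± 7.68 CPM in WT tumors (edgeR adjusted p = 0.0760). Transcripts encoded by the mitochondrial genome are not analysed here.

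**Figure D2:**
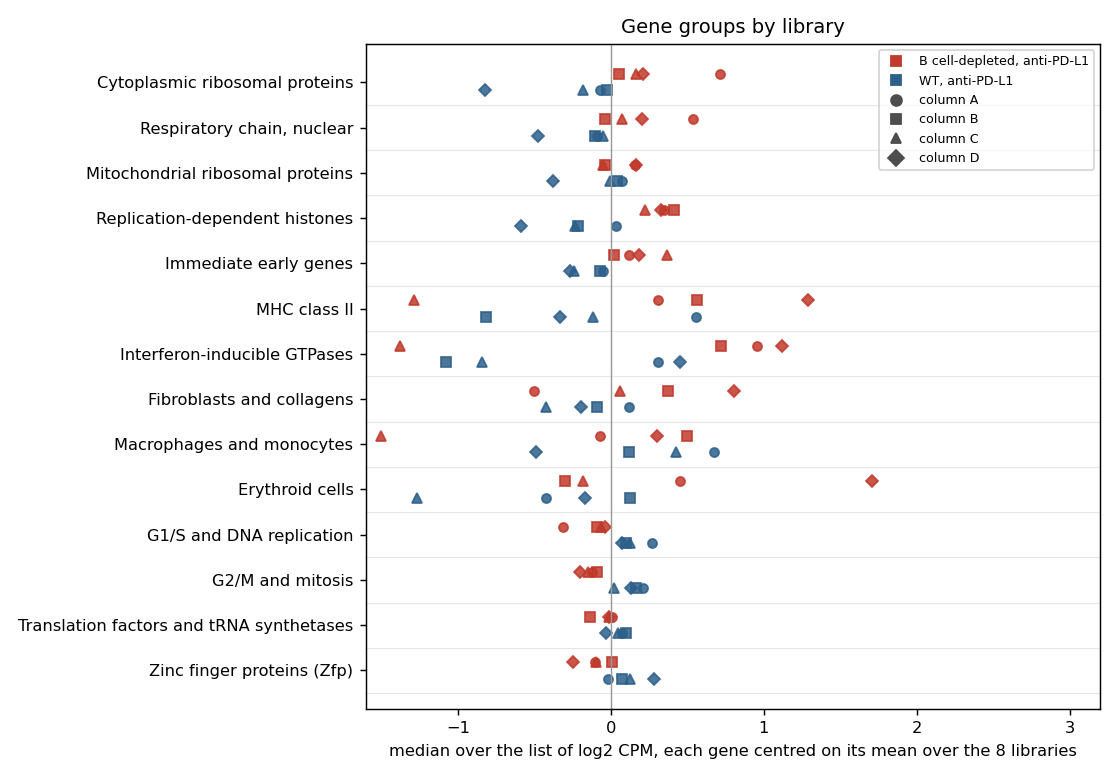
Median over each list of log2 CPM, every gene centred on its mean over the 8 treated libraries, with 1 point per library (color gives the group, shape the column). Ribosomal proteins, respiratory chain, histones and immediate early genes lie higher in all B cell-depleted libraries, replication and mitosis genes lie lower, and MHC class II, interferon GTPase and macrophage lists spread widely within each group, with BKO_PDL1 C lowest.

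Genes of the cell cycle leaned the other way. Of 31 genes of the G1/S transition and DNA replication, 9 were positive and the median was -0.27. In the edgeR fit of all libraries 0 were called, with 2 higher and 12 lower at an unadjusted p under 0.05. The fit of 8 called 1 higher and 10 lower, DESeq2 0 higher and 6 lower, and voom 0. The list median was -0.31, -0.09, -0.06 and -0.04 in B cell-depleted columns A to D, against 0.27, 0.10, 0.12 and 0.07 in WT columns A to D. Mcm3, a subunit of the replicative helicase, had 152, 191, 199 and 192 CPM in B cell-depleted tumors, against 293, 243, 247 and 234 CPM in WT tumors (-0.47 ± 0.12, edgeR adjusted p = 0.0565). Rrm1, of ribonucleotide reductase, had 129, 157, 154 and 149 CPM in B cell-depleted tumors, against 241, 241, 260 and 418 CPM in WT tumors (-0.98 ± 0.27, edgeR adjusted p = 0.0781). Mcm4 averaged 60.1 ± 4.36 CPM in B cell-depleted and 87.2 ± 9.62 CPM in WT tumors.

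Mitotic genes were mostly lower in sign, with exceptions. Of 30 tested, 6 were positive and the median was -0.27. In the edgeR fit of all libraries 0 were called, with 2 higher and 9 lower at an unadjusted p under 0.05. The fit of 8 called 2 higher and 10 lower, DESeq2 2 higher and 1 lower, and voom 0. Top2a, the topoisomerase that untangles replicated chromosomes, had 225, 264, 258 and 213 CPM in B cell-depleted tumors, against 359, 381, 385 and 410 CPM in WT tumors (-0.68 ± 0.17, edgeR adjusted p = 0.0630). Cdc20, an activator of the anaphase complex, had 63.6, 56.8, 64.4 and 71.9 CPM in B cell-depleted tumors, against 55.3, 43.7, 36.7 and 26.6 CPM in WT tumors. Cdca8, of the chromosomal passenger complex, averaged 115 ± 16.7 and 72.4 ± 19.9 CPM in the same order. For all 3 genes the groups did not overlap, so members of this list lay on opposite sides. With the GC slope as a covariate the median of the mitotic list was -0.06 and that of the replication list -0.16. The sums ran from 2155 to 2271 CPM in B cell-depleted tumors and 2495 to 2761 CPM in WT tumors for mitosis, and from 2671 to 3300 against 3546 to 4043 CPM for replication, without overlap in either.

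Replication-dependent histones, which package new DNA and whose messages mostly lack a poly(A) tail, had the sign of the ribosomal proteins and not of the replication genes. Of 33 tested, 29 were positive and the median was 0.64. In the edgeR fit of all libraries 0 were called, with 11 higher and 0 lower at an unadjusted p under 0.05. The fit of 8 called 5 higher and 0 lower, DESeq2 3 higher and 0 lower, and voom 0. The list median was 0.35, 0.41, 0.22 and 0.33 in B cell-depleted columns A to D, against 0.03, -0.21, -0.23 and -0.59 in WT columns A to D. It was 0.27 with the GC slope as a covariate. The summed level, 314 to 419 CPM in B cell-depleted tumors and 351 to 382 CPM in WT tumors, did not separate the groups, the WT range lying within the B cell-depleted one.

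Splicing factors held 3 called genes without moving as a group. Of 74 tested, 36 were positive and the median was -0.02. The fit of 8 libraries called 9 higher and 4 lower (6.22% and 7.24% of all genes). U2af1, which reads the end of the intron, had 47.7, 65.1, 45.5 and 42.2 CPM in B cell-depleted tumors, against 31.4, 30.0, 25.3 and 28.9 CPM in WT tumors, a change of 0.80 ± 0.14 (edgeR adjusted p = 0.0344). Lsm7, of the ring that binds U6 RNA, had 12.7, 16.5, 13.6 and 15.5 CPM in B cell-depleted tumors, against 8.29, 6.55, 6.21 and 4.44 CPM in WT tumors. Snrpf, of the core Sm ring, had 18.6, 15.2, 17 and 10.7 CPM in B cell-depleted tumors, against 8.15, 8.21, 7.71 and 8.52 CPM in WT tumors. U2af1 and Lsm7 stayed called with the GC slope as a covariate, at adjusted p = 0.0355 and 0.0428 of edgeR.

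Zinc finger genes with a Zfp symbol, most of them transcriptional repressors, formed the largest list that leaned lower. Of 327 tested, 104 were positive and the median was -0.27. The fit of 8 libraries called 16 higher and 38 lower (6.22% and 7.24% of all genes). With the GC slope as a covariate the median was -0.02. The 1 called member, Zfp804b, rose by 1.57 from low levels, 1.41 ± 0.172 CPM in B cell-depleted tumors and 0.466 ± 0.0643 CPM in WT tumors. Deubiquitinases had a median of -0.11, with 23 of 61 positive, and 3 higher and 8 lower in the fit of 8. With the covariate their median was -0.02. Usp44, which was placed on that list with its result known, had 1.90, 0.888, 0.770 and 1.87 CPM in B cell-depleted tumors and 0.469, 0.414, 0.345 and 0.253 CPM in WT tumors. Usp44 and Zfp804b had the opposite sign in the deposited log2 values, at -0.45 and -0.24.

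Genes of metabolism showed no single direction. The hypoxia and glycolysis list had 20 of 34 positive and a median of 0.13, with 4 higher and 0 lower in the fit of 8 libraries. The median was 0.20 with the GC slope as a covariate, 0.05 without BKO_PDL1 C and 0.01 over members that overlap no other gene. P4ha2, a collagen prolyl hydroxylase, had 93.7, 85.2, 108 and 109 CPM in B cell-depleted tumors, against 65.9, 72.6, 58.8 and 51.3 CPM in WT tumors (edgeR adjusted p = 0.0555). Adm, the vasodilator peptide adrenomedullin, had 81.2, 40, 58.2 and 55.2 CPM in B cell-depleted tumors, against 21.8, 32.2, 28.0 and 24.9 CPM in WT tumors (edgeR adjusted p = 0.0614). Of the cholesterol pathway, Sqle averaged 163 ± 9.0 CPM in B cell-depleted and 250 ± 58.2 CPM in WT tumors, while Mvk averaged 68.6 ± 10.3 and 42.1 ± 8.10 CPM in the same order. Neither passed the test. Among 250 solute carriers, 163 were positive and the median was 0.14. In the fit of all libraries 2 were called higher and 2 lower (0.445% and 0.253% of all genes). In the fit of 8 it was 20 higher and 6 lower (6.22% and 7.24% of all genes). Their median was 0.03 with the GC slope as a covariate. Slc39a5, a zinc importer, was the called one with the lowest p, but its span lies wholly within other genes, Ankrd52 among them.

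Genes of the MHC were higher in sign but varied within groups, while those that prepare its peptides were mixed. Immunoproteasome and peptide loading genes had 9 of 13 positive and a median of 0.40. That median was 0.20 with the GC slope as a covariate and -0.38 over members that overlap no other gene. Their sum was lower in every B cell-depleted library, at 2360 to 2979 CPM, against 3043 to 3316 CPM in WT tumors. MHC class I molecules had 14 of 14 positive and a median of 0.64, 0.26 with the GC slope as a covariate, and 4 were called higher in the fit of 8. MHC class II genes had 9 of 10 positive and a median of 0.95, which became 0.01 with that covariate, and 2 were called higher in the fit of 8. The class II list stood at 0.31, 0.56, -1.29 and 1.29 in B cell-depleted columns A to D, against 0.56, -0.82, -0.12 and -0.33 in WT columns A to D. The groups overlapped, with BKO_PDL1 C the lowest and BKO_PDL1 D the highest of the 8. The median was 0.27 without BKO_PDL1 D and 1.33 without BKO_PDL1 C. The exchange factors H2-DMb1 and H2-DMb2, which load class II, were nonetheless higher in every B cell-depleted library: H2-DMb2 had 1.66, 1.21, 1.12 and 1.56 CPM in B cell-depleted tumors and 0.721, 0.663, 0.268 and 0.505 CPM in WT tumors (edgeR adjusted p = 0.115).

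Interferon-inducible GTPases, which cells make in response to interferon gamma, had 19 of 20 positive and a median of 0.81. By edgeR 0 of 20 were called in the fit of all libraries or of 8, 0 had an unadjusted p under 0.05, and DESeq2 and voom called 0. The list stood at 0.96, 0.72, -1.38 and 1.12 in B cell-depleted columns A to D, against 0.31, -1.08, -0.84 and 0.45 in WT columns A to D. The groups overlapped, and the median was 1.15 without BKO_PDL1 C and 0.50 without BKO_PDL1 A, with further shifts to 0.57 without BKO_PDL1 D, 0.52 without WT_PDL1 B, 1.07 without WT_PDL1 A and 1.04 without WT_PDL1 D. In untreated tumors the median of the list was -1.63.

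Markers of other cells in the tumor were measured on 15 lists, and 1 of these held a called gene, Lpl, on the adipocyte list. Killer lymphocyte genes had 4 of 5 tested positive, with a median of 1.16, all at low levels. T cell genes had 10 of 11 positive and a median of 0.39, and Lck, the kinase of the T cell receptor, had 4.90, 3.49, 3.81 and 4.08 CPM in B cell-depleted tumors, against 3.14, 2.93, 3.07 and 2.42 CPM in WT tumors (edgeR adjusted p = 0.192). With the GC slope as a covariate the T cell median was 0.05, with 7 of 11 positive, and the change of Lck was 0.21 in place of 0.49. The T cell median was 0.24 without BKO_PDL1 A and 0.25 without BKO_PDL1 D. The summed T cell level ran from 65.6 to 87.4 CPM in B cell-depleted tumors and 65.5 to 72.6 CPM in WT tumors, and so overlapped. Fibroblast and collagen genes had 22 of 24 positive and a median of 0.42, which was 0.27 with the GC slope as a covariate and 0.24 without BKO_PDL1 D. Their sum ran from 1373 to 2175 CPM in B cell-depleted tumors and 921 to 1440 CPM in WT tumors, and so overlapped.

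Macrophage and monocyte genes went in both directions. Of 23 tested, 6 were positive and the median was -0.26. The sum, 924 to 1141 CPM in B cell-depleted tumors and 423 to 830 CPM in WT tumors, did not overlap and was carried by Apoe, the apolipoprotein that macrophages and other cells make. Apoe had 828, 758, 874 and 1003 CPM in B cell-depleted tumors, against 620, 503, 627 and 304 CPM in WT tumors (edgeR adjusted p = 0.105). Lyz2, the macrophage lysozyme, had 20.1, 45.0, 8.20 and 26.2 CPM in B cell-depleted tumors, against 63.8, 36.8, 53.1 and 43.9 CPM in WT tumors, and overlapped. BKO_PDL1 C was the lowest library of the list, and without it the median was 0.00. It was -0.85 with the GC slope as a covariate, with 2 of 23 positive. It was -0.50 without BKO_PDL1 B, -0.41 without WT_PDL1 D, -0.17 without WT_PDL1 C and -0.14 without WT_PDL1 A.

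Hemoglobin genes mark blood in the tissue. Hba-a1 had 164, 75.7, 91.2 and 381 CPM in B cell-depleted tumors, against 59.1, 95.5, 31.6 and 47.6 CPM in WT tumors, with BKO_PDL1 D the highest. The erythroid list had 7 of 8 positive and a median of 0.59, which was 0.10 without BKO_PDL1 D and 0.35 without WT_PDL1 C. No cell-type list other than killer lymphocytes, whose sums overlapped, separated the groups by its library medians. The part of cell content in the changes of the other lists was not tested.

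The change also followed the GC content of genes. A GC slope was computed for each library as the change in log2 CPM per 10 percentage points of gene GC content. It was -0.043, 0.060, 0.201 and 0.217 in B cell-depleted columns A to D, against -0.089, -0.177, -0.246 and -0.459 in WT columns A to D. The means were 0.109 ± 0.123 and -0.243 ± 0.158 in the same order (SD, n = 4 each). The difference of 0.352 had an exact permutation p of 0.0286, the smallest that 70 splits allow. It lay between 0.280 and 0.403 as each library was left out, with an exact p of 0.0571 without BKO_PDL1 C, BKO_PDL1 D, WT_PDL1 C or WT_PDL1 D. GC content, the preparation of the libraries and B cell depletion cannot be told apart by this design, since the slope differs between the groups.

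Across 5 equal groups of the 15110 protein-coding genes from the lowest to the highest GC content, the median change was -0.26, -0.16, -0.02, 0.15 and 0.33. Genes called higher numbered 4, 11, 6, 14 and 27 in these groups, and genes called lower 3, 7, 3, 1 and 0. By length, from the shortest of 5 equal groups to the longest, the median was 0.25, 0.09, -0.04, -0.11 and -0.04, and 30 of the genes called higher were in the shortest group. The median GC content was 49.7% for genes called higher, 46.3% for genes called lower and 46.4% for all genes tested. With the GC slope as a covariate edgeR called 39 genes (22 higher, 17 lower; 0.202%, 0.114% and 0.0879% of those tested), of which 23 were among the 135. The ribosomal and respiratory medians changed little under it, whereas those of MHC class II, mitosis and zinc finger genes moved close to 0. This fit adjusted for GC content and not for length, and the shortest group kept a median of 0.09 in it. A slope on the logarithm of gene length was -0.020, 0.015, 0.036 and 0.217 in WT columns A to D. It ran from -0.050 to 0.037 in B cell-depleted libraries. The part of gene length in the list medians was not tested.

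**Figure D3:**
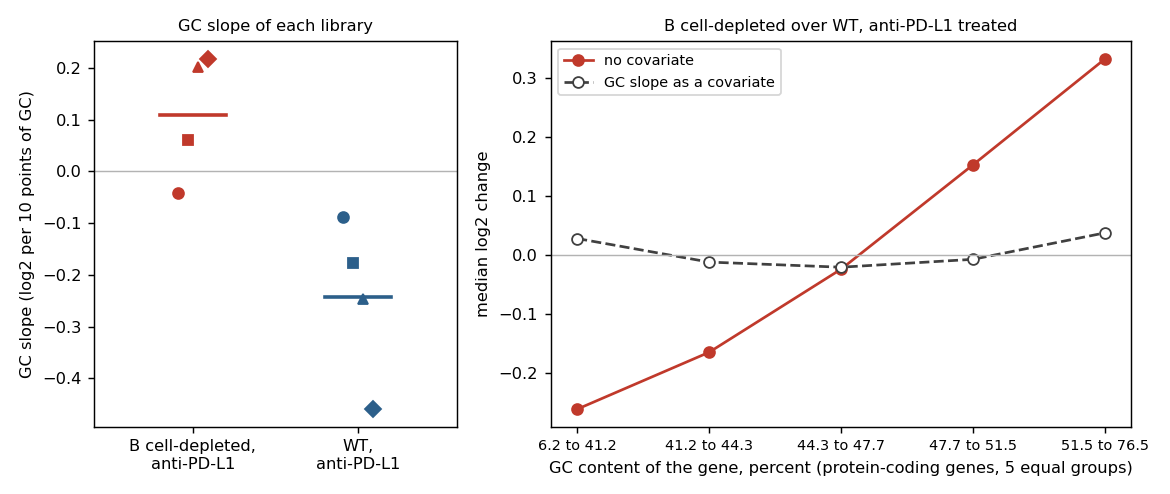
Left, the GC slope of each treated library (log2 CPM per 10 percentage points of GC; bars are group means). Right, the median log2 change of B cell-depleted over WT in 5 equal groups of 15110 protein-coding genes by GC content, without and with the slope as a covariate: it runs from -0.26 to 0.33 without the covariate and stays within -0.02 to 0.04 with it. The slope was computed from the same log2 CPM values, so this flattening is built in.

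**Figure D4:**
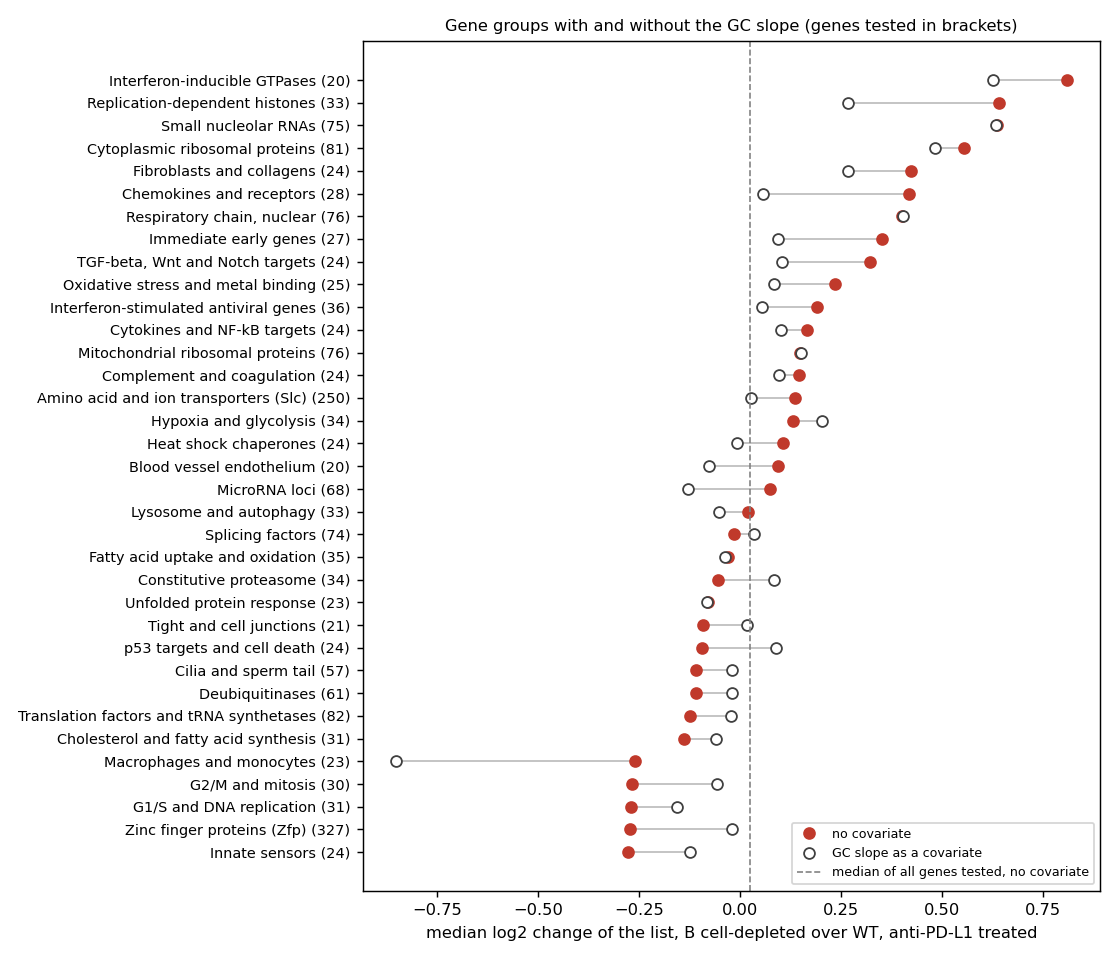
Median log2 change of each list with at least 20 genes tested (numbers in brackets) in B cell-depleted over WT tumors, without (filled) and with (open) the GC slope as a covariate; the dashed line is the median of all 19340 genes. Ribosomal proteins (0.55 and 0.48) and the respiratory chain (0.40 and 0.40) stay apart from the line in both, while the zinc finger list moves from -0.27 to -0.02.

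Pseudogenes made up most of the falls. The largest in abundance, Gm13456, chosen after its values were seen, had 1405, 1418, 1426 and 1580 CPM in B cell-depleted tumors, against 2235, 2779, 2949 and 3841 CPM in WT tumors, a change of -1.02 ± 0.18 (edgeR adjusted p = 0.0344). The lowest adjusted p of all genes, 0.00997, belonged to the pseudogene Gm4287, with 2.21, 2.78, 3.04 and 2.86 CPM in B cell-depleted tumors and 6.74, 7.43, 8.55 and 9.71 CPM in WT tumors. It was called in 7 of the 8 fits that left out a treated library and with the GC slope as a covariate (adjusted p = 0.0119). The share of all counts in pseudogenes did not separate the groups, at 9.77 ± 0.648% in B cell-depleted and 10.1 ± 0.679% in WT tumors.

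Overlapping genes reduce the number of separate loci behind the calls. Of the gene spans listed, 38.1% (14522 of 38087) overlap another gene, each gene is counted over its whole span, and strand was not used. The 86 genes that rose lie at 80 loci and the 49 that fell at 39 loci. Gm6787 and Psmb7-ps2, Pxt1 and the antisense gene Gm16191, and Rgs22 and Gm18889 are sets of this kind, and each counts the same reads at least in part. Restricting the test to genes with no overlap left 10365 genes, of which 3 were called higher (0.0289%) and 8 lower (0.0772%; 0.106% in all), every one of them among the 135.

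The same contrast in untreated tumors shared no library with the treated one. It holds BKO_untreated B, the library that lay far from its group in GC slope. There edgeR called 172 genes (0.889%), 41 higher (0.212%) and 131 lower (0.677%) in B cell-depleted tumors. Of the 86 genes that rose under anti-PD-L1, 44 had the same sign in untreated tumors and 1 was called the same way, the transcript 4930535L15Rik. Of the 49 that fell, 10 had the same sign and 0 were called the same way. Over all genes tested, 36.4% had the same sign in both contrasts. The median change in untreated tumors was 0.04 for the genes that rose, 0.34 for those that fell and 0.04 for all genes.

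The difference between the contrasts was tested as an interaction, treated minus untreated. edgeR called 1474 of 19340 genes (7.62%), 918 positive (4.75%) and 556 negative (2.87%). Among the genes called under anti-PD-L1, which were chosen by one side of this difference, 48 of the 86 that rose and 40 of the 49 that fell had a called interaction. A set of 8 was called in opposite directions in treated and untreated tumors. Stoml2 averaged 27.2 ± 4.32 CPM in B cell-depleted and 49.4 ± 2.21 CPM in WT untreated tumors, a change of -0.86 (edgeR adjusted p = 0.0101) against 0.66 under treatment. Eif4a3 averaged 51.4 ± 5.89 and 93.7 ± 5.79 CPM in the same order, a change of -0.87 (edgeR adjusted p = 0.0321) against 0.76 under treatment. The other 6 were Gm17138, Gm15502, Psmb7-ps2, Gm6787, Mir1981 and Gm4707, of which all but Gm6787 lie wholly within another gene.

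Slc7a11, Slc25a27, Neat1 and Samd12 are examples of called genes whose interaction did not pass the test. Slc7a11 changed by -0.78 in treated and -0.45 in untreated tumors (interaction -0.33, edgeR adjusted p = 0.366). Slc25a27 changed by 1.58 and 0.94 in the same order (interaction 0.63, edgeR adjusted p = 0.338). Lpl differed, at -1.29 in treated and 0.53 in untreated tumors (interaction -1.82, edgeR adjusted p = 0.0165). Among the lists, the median of ribosomal proteins was -0.11 in untreated tumors, that of the respiratory chain 0.07, that of the replication genes -0.13 and that of histones -0.23. The number of interaction calls ranged from 289 without WT_untreated C to 3932 without BKO_untreated D. It was 1508 without BKO_untreated B and 174 with the GC slope as a covariate.

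**Figure D5:**
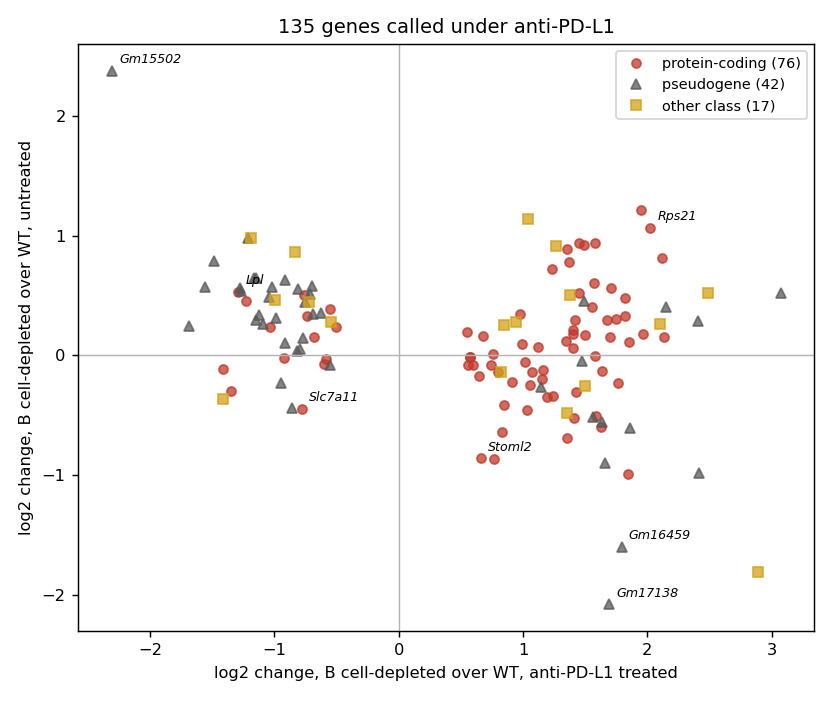
Log2 change of B cell-depleted over WT in anti-PD-L1 treated tumors (horizontal) and in untreated tumors (vertical) for the 135 genes called under treatment, by gene class. The genes that rose scatter around 0 on the vertical axis (median 0.04), and those that fell under treatment lie mostly above it (median 0.34).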

How the data were processed

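Total RNA of whole tumors was depleted of ribosomal RNA, made into libraries with the Ion Total RNA-Seq Kit and sequenced by a service company. Per the labels, reads were placed on mm10 and DESeq was used; neither aligner nor counter is given in the sources used here. The deposited values used here are raw read counts per gene, with no normalization, for 38087 genes over whole gene spans. The GC content of each gene, in percent, is deposited in the same table. The normalized log2 values deposited by the authors served as an alternative. Another 32 per-library columns were not used, nor were the fold changes and p-values of the authors' own comparisons.

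Counts were fitted in R 4.3.3 with edgeR 4.0.16 (TMM, filterByExpr over the 4 groups, robust quasi-likelihood F test, all 16 libraries, 1 coefficient per group). The Benjamini-Hochberg adjustment ran over 19340 genes, and genes with an adjusted p under 0.05 were called. Levels are TMM-scaled CPM, and the prior count for log2 CPM was 2. The GC slope was fitted over genes with a mean of at least 1 CPM. Alternatives were RLE factors, other filters, the 8 treated libraries, the GC slope or the column letter as a covariate, genes without overlap, leaving out each library, limma 3.58.1 (voom, and on the log2 values) and DESeq2 1.42.0. The edgeR steps were tested on simulated data.

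The members and the 56 lists were chosen with earlier results of these data known. Tsga10, Rgs22 and Pxt1 (cilia), Marveld2 (junctions) and Usp44 (deubiquitinases) were placed on lists in that knowledge. Named genes were the 15 largest changes in each direction among called protein-coding genes with under 50% of the span overlapped, the 10 called genes with the lowest p, called members of lists or up to 3 members with the lowest p, genes the study names, B cell genes, and 10 genes by interaction p. Results for some genes are not reported here. No pair of libraries agreed within sampling noise. P-values and SEs rest on the spread between these libraries, and SDs are taken over the 4 libraries of a group. The floor used for Igkc covers counting error only.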

Additional observations from a re-analysis of the deposited data

Results flagged for a closer look

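Of 226 groups of 4 values examined, 18 held 1 library far from the other 3, by Dixon's criterion on the gap to the nearest one. Chance marks about 1 group in 20, so these values are given without further reading. BKO_PDL1 A was the distant library for Tmem63c, at 19.1 CPM where the others were 6.89 to 7.44, for Atp5k, at 84.1 CPM, for Mcm3, at 152 CPM, and for Cd79a, at 0.158 CPM. BKO_PDL1 B was the distant one for ERDR1, at 173 CPM where the others were 111 to 119, for Lpl, at 3.70 CPM, for Nudt8, at 13.2 CPM, for Nrbf2, at 13.5 CPM, and for the small nucleolar RNA SNORD24, at 7.91 CPM. BKO_PDL1 D stood apart for the pseudogene Gm13456, at 1580 CPM.

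Among the WT libraries, WT_PDL1 D was the distant one most often. It held 16.6 CPM of Gm15502 where the others held 4.04 to 5.31, 0.361 CPM of Mep1b, 21.4 CPM of Mrpl54, 418 CPM of Rrm1 and 0.614 CPM of Cd79a, and its share of counts in pseudogenes was 9.09% where the others were 10.4% to 10.5%. WT_PDL1 C stood apart for Lpl, at 7.21 CPM, and WT_PDL1 B for Ier3, an immediate early gene, at 118 CPM.

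For 60 of the 109 named genes examined the log2 difference between B cell-depleted and WT tumors itself differed between treated and untreated mice, by the edgeR interaction test at an adjusted p under 0.05, against 7.62% of all genes tested. The choice of genes fixes this count in part, since some were picked by their interaction p and many by a call in treated tumors, which is 1 side of the same difference. Values in brackets are treated minus untreated on the log2 scale. In the ribosome, RNA processing and mitochondrial groups these were Rpl28 (1.49), Rps28 (1.28), Eif4a3 (1.63), Lsm7 (1.54), Snrpf (1.13), U2af1 (0.93), Mrps24 (0.91) and Stoml2 (1.52). In the cell cycle they ran both ways, with Cdc20 (1.18) and Cdca8 (1.31) on the positive side and Top2a (-0.84) and Rrm1 (-1.33) on the negative side. The immediate early genes Dusp1 (1.29), Gadd45b (1.92) and Ier3 (1.31) were positive. So were P4ha2 (1.16) and Gpi1 (1.32) of the hypoxia and glycolysis list, Mt1 (1.64) of metal binding and Apoe (1.39) of the macrophage list.

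Lipid genes were on both sides, with Mvk (1.37) and Pla2g4e (0.97) positive and Sqle (-1.0), Lpl (-1.82) and Cd36 (-1.68) negative. The erythroid genes were positive, with Hba-a1 (4.44), Hba-a2 (4.39) and Alas2 (3.44). Other protein-coding genes with a positive difference were Comtd1 (1.73), Ccdc58 (0.90), Nudt8 (1.21), Slc39a5 (1.23), ERDR1 (1.79), Cyp2t4 (1.45), Angel1 (1.55), 4933408J17RIK (2.84), Dnase1l2 (1.77), Cited1 (1.59), CR536618.1 (1.99), Fam176b (2.22) and Mep1b (2.10). Protein-coding genes with a negative one were Rgs22 (-1.27), Tsga10 (-1.29), AC159008.1 (-0.90), AY358078 (-1.69), Pde7b (-1.06), Slc1a1 (-0.94), Xrcc5 (-0.83) and Tceb3 (-0.74). Among non-coding loci and pseudogenes, Gm15745 (2.13), Gm17138 (3.77), SNORD24 (1.84) and Gm6913 (3.04) were positive, and Gm4287 (-2.13), Gm6787 (-2.16), Psmb7-ps2 (-2.19), Gm4707 (-1.22), Gm13456 (-1.59), Gm15502 (-4.68), Mir1981 (-1.70) and Gm9531 (-1.42) were negative.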

How the results depend on the processing

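The count of 135 genes stood near its value with RLE size factors (131) and with no filter beyond 10 counts in all (122). It was 208 with at least 1 CPM in 4 libraries, 2602 with the 8 treated libraries alone, 39 with the GC slope as a covariate, 11 among genes that overlap no other gene, 72 by limma voom, 1503 by DESeq2 and 17 by limma on the log2 values of the authors. Leaving out each library gave 0 (without WT_PDL1 C) to 3742 calls (without BKO_untreated B). The runs that left out untreated libraries, and all such runs for the interaction, the GC slope and the B cell genes, were chosen after seeing the data. The cause of these shifts was not tested.

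The 135 genes kept their direction in every run on counts that gave them a value. With 134 of them not overlapping between the groups, runs that left out a library could hardly change this. On the log2 values of the authors 117 of the 132 with a value kept their direction. Those named that turned were Samd12 (-0.29), Tmem63c (-0.21), AY358078 (0.50), Usp44 (-0.45), SNORD24 (-0.59) and Zfp804b (-0.24). Of the 55 named genes called in the main comparison, 53 remained called with RLE factors, 16 with the GC slope, 34 by voom, 55 by DESeq2 and 6 on the log2 values of the authors.

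The interaction count of 1474 became 174 with the GC slope and 3262 by DESeq2, and ranged from 289 to 3932 as each library was left out. The Igkc difference ranged from -0.303 to -0.156 CPM and the GC slope difference from 0.280 to 0.403.

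With the column letter as a replicate block edgeR called 0 genes, the lowest adjusted p being 0.050008, with 4335 genes at an unadjusted p under 0.05, against 72 calls by voom and 1503 by DESeq2 without the block. Deviations from the group means of libraries with the same letter correlated at -0.155, -0.271, -0.074 and -0.130, so the letters were not taken to pair libraries.

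The shallowest treated library, BKO_PDL1 A, held 12544573 counts, which limits what can be said of genes at a few counts, such as those of B cells.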

Other observations

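Small nucleolar RNAs, which guide chemical modification of ribosomal RNA, had 50 of 75 tested positive and a median of 0.64 in B cell-depleted over WT tumors. The list median was -0.09, 0.86, 0.14 and 0.25 in B cell-depleted columns A to D, against -0.35, -0.29, -0.37 and 0.39 in WT columns A to D, so the groups overlapped. It was 0.01 on the log2 values of the authors and 0.27 without BKO_PDL1 B. edgeR called 1 higher in the fit of all libraries, and 7 higher and 2 lower in the fit of 8. Many of these loci lie within other genes, and the median over those with no overlap was 0.35.

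Targets of TGF-beta, Wnt and Notch signaling had 18 of 24 positive and a median of 0.32, which was 0.10 with the GC slope as a covariate and 0.21 without BKO_PDL1 D. In the fit of the 8 treated libraries 1 was called higher. That fit called 6.22% of all genes tested higher and 7.24% lower. Oxidative stress and metal-binding genes had 18 of 25 positive and a median of 0.23, with 4 higher and 2 lower in the fit of the 8 treated libraries. That median was 0.09 with the GC slope as a covariate. Mt1, a metallothionein chosen after its values were seen, had 1404, 488, 930 and 816 CPM in B cell-depleted tumors, against 491, 515, 371 and 272 CPM in WT tumors (edgeR adjusted p = 0.0524), and the groups overlapped. Unfolded protein response genes had 8 of 23 positive and a median of -0.08, and heat shock chaperones 13 of 24 and 0.11.

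Genes that the study names from its transcriptome were low in these libraries, and 3 of 5 had enough counts to test. Lag3, an inhibitory receptor of T cells, had 0.553, 0.533, 0.693 and 0.420 CPM in B cell-depleted tumors, against 0.144, 0.276, 0.345 and 0.181 CPM in WT tumors. The groups did not overlap, and the change of 1.20 ± 0.52 (SE) had an edgeR adjusted p of 0.173 and was 0.33 with the GC slope as a covariate. Ido2 averaged 0.699 ± 0.291 CPM in B cell-depleted tumors and 0.426 ± 0.084 CPM in WT tumors (SD, n = 4 each; edgeR adjusted p = 0.324). Its change of 0.66 was 0.00 with the GC slope as a covariate and 1.36 on the log2 values of the authors. Nlrp10 averaged 0.904 ± 0.332 and 0.832 ± 0.326 CPM in the same order. The study picked this list on these samples, so its direction is not independent evidence.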
